A study of Homo sapiens with 8 samples.

Results

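The RNA of 6 lineage factors, GATA2, GATA3, GATA4, GATA6, FOXA1 and FOXA2, was measured in G401, an established human cell line of rhabdoid kidney tumor. They are 6 of the 69215 genes counted in every library. They were chosen by the measured change of GATA6 and FOXA1 after re-expression of SMARCB1, a core subunit of the mSWI/SNF chromatin remodelling complexes that these tumors lack. The values of SMARCB1 Dox against SMARCB1 DMSO are therefore given below as a description, with no test. All cells were G401 cells without SMARCB1 of their own and carried a Tet-On construct for either SMARCB1 or GFP that doxycycline (Dox) turns on. The 4 groups were SMARCB1 Dox and GFP Dox, treated with 0.1 µg/ml Dox for 12 h, and SMARCB1 DMSO and GFP DMSO, which received the solvent (0 µg/ml Dox) for the same 12 h. Each group had 2 libraries of pooled plates. Whether a line came from a single clone, and whether the replicates were separate cultures, is not given in the sources used here, so the p-values measure the spread between these libraries, which may be technical.

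Libraries held between 29632090 and 37597477 counts in genes. As the labels say, SMARCB1 itself was read 30474 and 29383 times in SMARCB1 Dox, but 10 and 21 times without Dox and 0 times with GFP. VIM, KRT8, KRT18 and SMARCA4, which rhabdoid cells express, had 3443 counts or more in every library. Markers of blood (PTPRC, CD3E), endothelium (PECAM1, CDH5), epithelium (EPCAM, CDH1), differentiated kidney (UMOD, NPHS1) and liver or yolk sac (ALB, AFP) had 0 to 31 counts, and CD3E, UMOD and AFP had 0 in every library. Mitochondrial genes took 18.9% to 27.9% of the gene counts, the most in SMARCB1 DMSO replicate 1 and the least in GFP Dox replicate 1. The part of this difference in the results below was not tested.

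GATA factors are zinc finger transcription factors named after the DNA sequence they bind. GATA2 and GATA3 are best known from blood progenitors and T cells, whereas GATA4 and GATA6 act in the heart, the gut and the extraembryonic endoderm, and GATA6 is needed for the primitive endoderm. FOXA factors are forkhead proteins that can bind their sites in closed chromatin, and are therefore called pioneer factors. FOXA1 and FOXA2 direct the formation of the liver and other endoderm organs, and FOXA1 opens sites for the estrogen and androgen receptors in breast and prostate.

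The promoters of 3 members are shown, because GATA6 and FOXA1 carry the difference from which the genes were chosen and GATA2 is the most abundant member. Each sequence is the 250 bases upstream of an annotated RefSeq start (GRCh38.p14), 5′ to 3′ on the strand of the gene. Capitals mark matches to either of 2 forkhead words, TGTTTAC (held by 2.98% of all RefSeq windows of this length) and TGTTTGC (3.23%), or of 4 GATA words, AGATAA (9.17%), TGATAA (6.66%), AGATAG (5.66%) and TGATAG (5.05%), on either strand. The GATA6 window lies at chr18:22169339-22169588 on the plus strand, just before the gene's first annotated base and inside the span of the antisense gene GATA6-AS1. The FOXA1 window lies at chr14:37595250-37595499 on the minus strand, inside the annotated span of FOXA1, some of whose transcripts start further upstream. The GATA2 window lies at chr3:128493202-128493451 on the minus strand, inside the span of the antisense gene GATA2-AS1.
GATA6: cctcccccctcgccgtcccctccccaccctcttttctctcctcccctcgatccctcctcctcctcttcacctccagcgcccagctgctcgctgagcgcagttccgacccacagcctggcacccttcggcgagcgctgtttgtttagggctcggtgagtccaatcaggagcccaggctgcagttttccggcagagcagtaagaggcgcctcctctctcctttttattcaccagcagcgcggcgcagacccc
FOXA1: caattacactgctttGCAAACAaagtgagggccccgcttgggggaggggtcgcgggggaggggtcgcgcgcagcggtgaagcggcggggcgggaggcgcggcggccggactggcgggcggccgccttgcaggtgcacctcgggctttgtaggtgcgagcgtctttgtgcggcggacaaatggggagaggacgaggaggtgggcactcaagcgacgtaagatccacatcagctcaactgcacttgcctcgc
GATA2: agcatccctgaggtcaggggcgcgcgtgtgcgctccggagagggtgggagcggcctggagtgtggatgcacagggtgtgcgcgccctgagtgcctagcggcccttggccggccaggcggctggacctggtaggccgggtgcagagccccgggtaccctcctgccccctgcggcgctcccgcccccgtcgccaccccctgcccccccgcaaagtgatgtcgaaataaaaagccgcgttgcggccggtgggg
The FOXA1 window held 1 forkhead match, TGTTTGC read on the opposite strand, 235 to 229 bases before the start. The GATA6 and GATA2 windows held no match of either kind. Over all 35116 windows, 6.09% held a forkhead match and 22.3% a GATA match. G and C made up 64.4% of the GATA6 window, 67.2% of the FOXA1 window and 72.8% of the GATA2 window, beside a median of 58% over all windows. The set of RefSeq windows used here held 4 of the 6 members. GATA4 and FOXA2 had no window in that set and are named only. The 6 GATA3 windows held 1 forkhead match in all, and the other GATA2 window held none.

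Primers for quantitative PCR of GATA6 and FOXA1 are listed by the study and mark the part of each mRNA that such an assay reads. They are printed 5′ to 3′.
GATA6 forward: gccactacctgtgcaacgcct
GATA6 reverse: caatccaagccgccgtgatgaa
FOXA1 forward: cgcttcgcacagggctggat
FOXA1 reverse: tgctgaccgggacggaggag
The GATA6 pair lies in coding sequence of exons 3 and 4 of 7, at chr18:22177039-22177059 on the plus strand and chr18:22181455-22181476 on the minus strand. The FOXA1 pair spans both exons of the canonical transcript, with the forward primer in the 5′ untranslated region of exon 1 at chr14:37595000-37595019 on the minus strand and the reverse primer in the coding sequence of exon 2 at chr14:37592687-37592706 on the plus strand.

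GATA2 (chromosome 3, 128479427 to 128493201, minus strand, GRCh38) was the most abundant member in every library. Its level, in counts scaled to the library size (CPM with TMM factors), was 16.2 and 18.9 CPM for SMARCB1 DMSO, 25.5 and 20.7 for SMARCB1 Dox, 35.1 and 33.5 for GFP DMSO, and 31.2 and 35.3 for GFP Dox. Every library of the GFP line lay above every library of the SMARCB1 line, and the GFP groups overlapped. How many of all genes separate in this way, here and for the members below, was not counted. The group means were 17.6 ± 1.95, 23.1 ± 3.39, 34.3 ± 1.1 and 33.3 ± 2.89 CPM (SD, n = 2) in the same order.

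GATA6 (chromosome 18, 22169589 to 22202528, plus strand) had the opposite order of lines. Its level was 4.22 and 3.94 CPM for SMARCB1 DMSO, 9.88 and 10.3 CPM for SMARCB1 Dox, 0.769 and 0.755 CPM for GFP DMSO, and 1.04 and 0.929 CPM for GFP Dox. No group overlapped another, and the SMARCB1 Dox libraries were the highest. The same held for GATA2-AS1, a gene beside GATA2 that was not called in the tests below. The GATA6 levels rest on 123 and 130 counts for SMARCB1 DMSO and on 352 and 360 for SMARCB1 Dox. In the GFP libraries they rest on only 26 to 34 counts. The group mean was 13.2-fold higher in SMARCB1 Dox than in GFP DMSO.

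FOXA1 (chromosome 14, 37589552 to 37596059, minus strand) was scarce. Its level was 0.96 and 1.21 CPM for SMARCB1 DMSO, 2.33 and 3.57 CPM for SMARCB1 Dox, 0.533 and 1.09 CPM for GFP DMSO, and 1.2 and 0.464 CPM for GFP Dox. The SMARCB1 Dox libraries, with 83 and 125 counts, lay above the other 6, which had 17 to 42 counts and overlapped among their 3 groups.

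GATA3 (chromosome 10, 8045378 to 8075198, plus strand) was near the limit of detection. It had 1 and 2 counts for SMARCB1 DMSO, 19 and 7 for SMARCB1 Dox, 4 and 0 for GFP DMSO, and 1 and 1 for GFP Dox, and did not pass the expression filter. Summed over libraries, 26 counts in SMARCB1 Dox stood against 3 in SMARCB1 DMSO, 7.63-fold more after scaling, with a 95% exact counting interval from 2.34 to 39.4. In the GFP line the same ratio was 0.535, from 2 and 4 counts, with an interval from 0.0484 to 3.74. Such intervals cover counting error only, and 19 of the 26 counts came from 1 library.

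GATA4 (chromosome 8) and FOXA2 (chromosome 20, 22580998 to 22585455, minus strand) had 0 counts in all 8 libraries. Taking 3 counts over the 8 libraries as the limit that a count of 0 allows, either gene could have been present at up to 0.011 CPM. This holds only for a level that was the same in every group. In a single library that limit was 0.0781 to 0.103 CPM, and it was 0.0842 and 0.0858 CPM in the SMARCB1 Dox libraries. Re-expression of SMARCB1 for 12 h was thus not accompanied by detectable RNA of these 2 relatives at this depth.

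**Figure D1:**
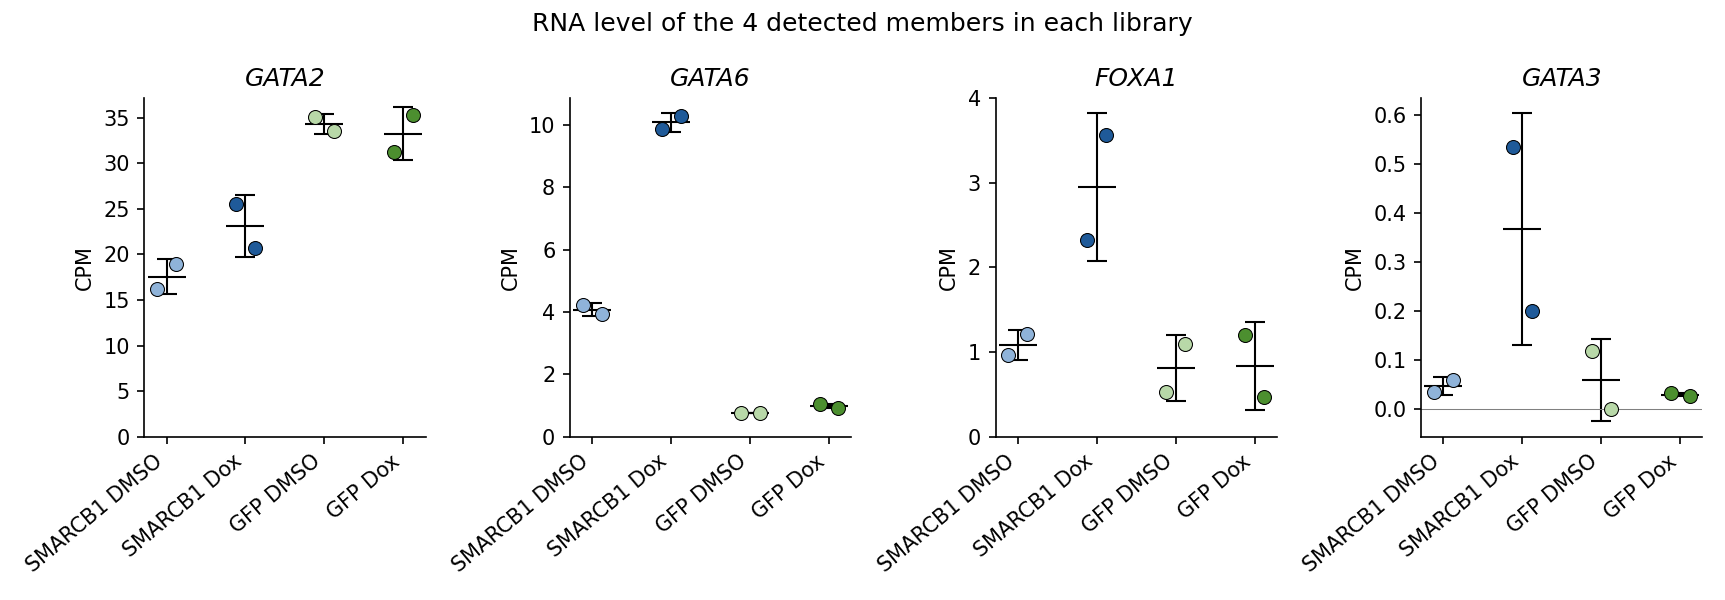
RNA level of the 4 members with counts, in CPM on a linear axis that differs between panels. Each point is 1 library, the long bar is the group mean and the whiskers are 1 SD (n = 2). GATA6 runs from 0.755 CPM in GFP DMSO to 10.3 CPM in SMARCB1 Dox, whereas GATA2 is highest in the GFP line.

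Per kilobase of exon, which allows levels of different genes to be compared, the order in SMARCB1 DMSO was GATA2 at 3.57 ± 0.397, GATA6 at 1.07 ± 0.0515, FOXA1 at 0.246 ± 0.0405 and GATA3 at 0.014 ± 0.00548 CPM per kb (SD, n = 2). The order was the same in SMARCB1 Dox, at 4.7 ± 0.689, 2.66 ± 0.0765, 0.669 ± 0.199 and 0.108 ± 0.0694 CPM per kb. In GFP DMSO, GATA2 stood at 6.98 ± 0.224 CPM per kb, while GATA6 at 0.201 ± 0.00267 and FOXA1 at 0.184 ± 0.0899 CPM per kb did not differ beyond their spread. GATA2 lay above the middle of the tested genes in every group, and FOXA1 lay below it. In SMARCB1 Dox, 62.2% of the tested genes lay below GATA2, 50.6% below GATA6 and 28.7% below FOXA1 on this scale, and in GFP DMSO 70.7%, 13.8% and 13% did.

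Of the 6 members 3, GATA2, GATA6 and FOXA1, passed the expression filter and entered the test across 15931 genes. Dox in the GFP line asked what the drug and a foreign protein do without SMARCB1. None of the 3 members was called (edgeR's quasi-likelihood test, Benjamini-Hochberg adjusted p under 0.05), beside 0% of all tested genes. GATA2 differed by -0.04 on the log2 scale (SE 0.109, adjusted p = 1 in edgeR), with a 95% confidence interval from -0.27 to 0.18. GATA6 differed by 0.36 (SE 0.27, adjusted p = 1 in edgeR), with an interval from -0.2 to 0.92, although both GFP Dox libraries lay above both GFP DMSO libraries. For FOXA1 the difference was -0.02 (SE 0.43, adjusted p = 1 in edgeR), with an interval from -0.91 to 0.88. Across all genes, 266 had an unadjusted p under 0.05 in this comparison and DESeq2 called 0. In a bulk sample, fewer cells that express a gene and less RNA per cell cannot be told apart, here and in every comparison.

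Re-expression of SMARCB1 is described next to it, for the same 3 genes. GATA6 was 2.47-fold higher in SMARCB1 Dox than in SMARCB1 DMSO, a log2 difference of 1.31 with a 95% interval from 0.96 to 1.65. FOXA1 was 2.7-fold higher, a log2 difference of 1.43 with an interval from 0.67 to 2.2. GATA2 was 1.31-fold higher, a log2 difference of 0.39 with an interval from 0.15 to 0.63. It was 0.24 without SMARCB1 Dox replicate 1. Over all genes 14% were called in this comparison, 8.33% higher and 5.69% lower, and nothing is read from that share for genes chosen in it. The log2 Dox effect in the SMARCB1 line exceeded that in the GFP line by 0.44 for GATA2, 0.95 for GATA6 and 1.45 for FOXA1. This is also a description, with 95% intervals from 0.11 to 0.77, from 0.28 to 1.61 and from 0.27 to 2.63 in that order. Of all tested genes 4.71% were called for such a difference between the lines, and the 3 members were not among them. The intervals of this paragraph allow for neither the choice of the genes nor the number of genes tested. An interval without 0 is therefore not a test result here. In 3.07% the SMARCB1 line had the larger value and in 1.64% the smaller. Without SMARCB1 Dox replicate 1 the excess for GATA2 was 0.28. For FOXA1 it was 0.83 without GFP DMSO replicate 2 and 2.26 without GFP Dox replicate 1.

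The lines also differed before induction, which was not used to choose the genes but shares the SMARCB1 DMSO libraries with the comparison that was. GATA6 was 5.33-fold higher in SMARCB1 DMSO than in GFP DMSO, with a log2 difference of 2.41 (SE 0.222, adjusted p = 1.35e-08 in edgeR). GATA2 was 1.95-fold lower, with a log2 difference of -0.96 (SE 0.114, adjusted p = 6.47e-07 in edgeR). For neither gene did the 4 libraries overlap between the lines. The same held for genes named below that were not called, TRPS1, GATA2-AS1, TAF3 and MIPOL1. The share over all genes was not counted. FOXA1 was not called, at 0.40 (SE 0.418, adjusted p = 0.508 in edgeR) with an interval from -0.47 to 1.27 and overlapping libraries. Its value ranged from -0.01 without GFP DMSO replicate 1 to 1.02 without GFP DMSO replicate 2. Of all tested genes 32% were called between the untreated lines, 16.3% higher and 15.7% lower in the SMARCB1 line, so 2 of 3 members called stand against a high background. SMARCB1 had 10 and 21 counts in the uninduced SMARCB1 line and 0 in the GFP line. The part of these counts in the difference between the lines was not tested.

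**Figure D2:**
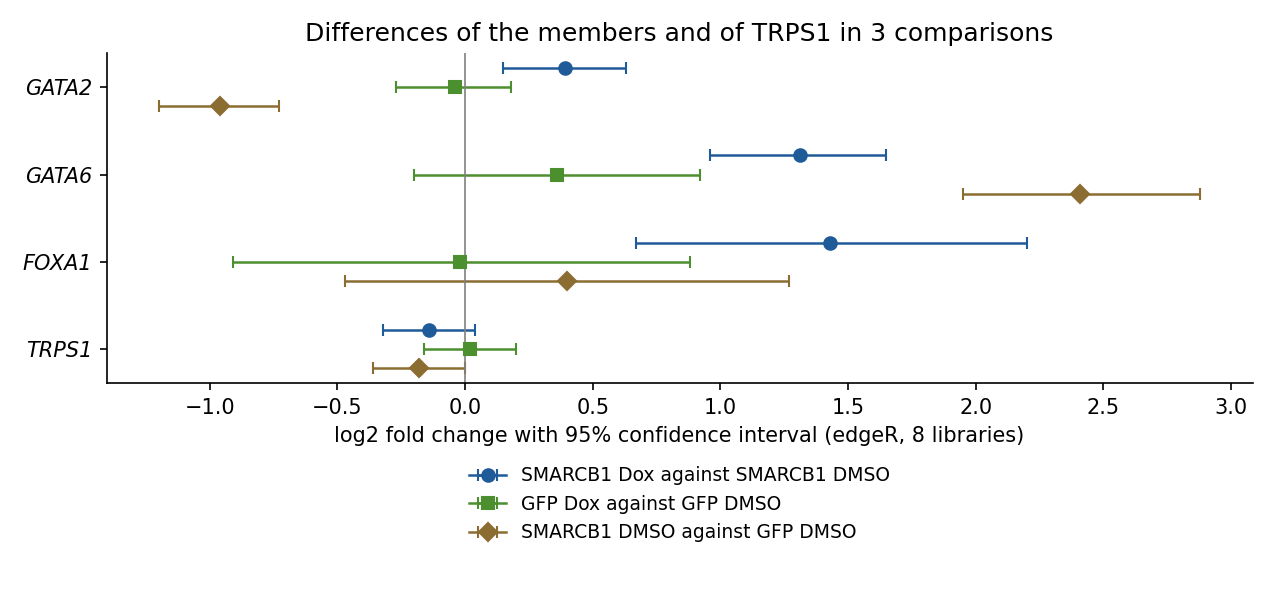
Log2 fold changes of GATA2, GATA6, FOXA1 and their relative TRPS1, with 95% confidence intervals from the fit over 8 libraries, in SMARCB1 Dox against SMARCB1 DMSO (circles, a description for the 3 members), GFP Dox against GFP DMSO (squares) and SMARCB1 DMSO against GFP DMSO (diamonds). The GFP intervals include 0 for all 4 genes, and between the untreated lines GATA6 lies at 2.41 and GATA2 at -0.96.

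The make-up of the GATA family differed between lines and with SMARCB1. As a share of the summed level of GATA1 to GATA6 per kilobase, GATA2 took 96.4% ± 0.304 in GFP DMSO and 95.7% ± 0.926 in GFP Dox (SD, n = 2). In the SMARCB1 line its share was 75.2% ± 3.33 in DMSO and 61% ± 2.24 in Dox. GATA6 took 22.7% ± 2.61 in SMARCB1 DMSO and 34.8% ± 4.83 in SMARCB1 Dox, against 2.77% ± 0.061 in GFP DMSO and 3.68% ± 0.574 in GFP Dox. The ratio of GATA2 to GATA6 per kilobase was 2.97 and 3.72 for SMARCB1 DMSO, 1.99 and 1.55 for SMARCB1 Dox, 35.2 and 34.3 for GFP DMSO, and 23.2 and 29.4 for GFP Dox. GATA2 exceeded GATA6 in each library, and the 4 groups did not overlap. How often other pairs of genes separate in this way was not counted. These shares are a description, since they contain the values that chose the genes.

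**Figure D3:**
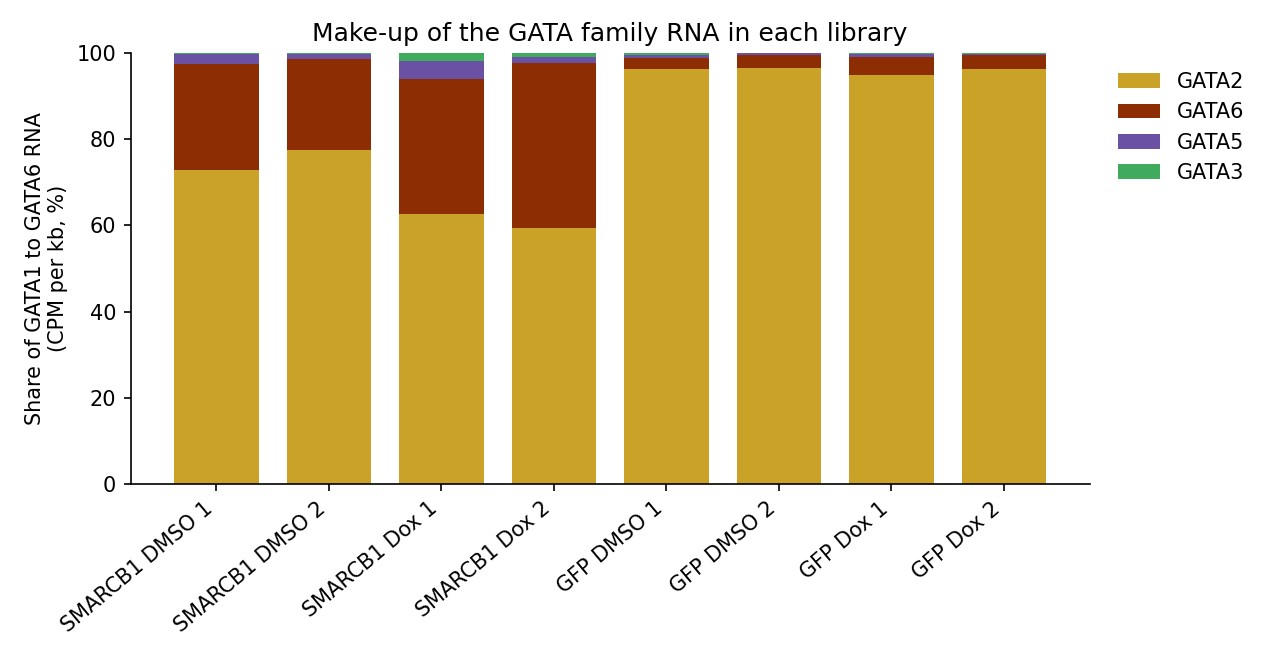
Share of each gene in the summed RNA level of GATA1 to GATA6 (CPM per kb, %), 1 bar per library. GATA2 takes at least 95% in each GFP library and GATA6 takes a larger share in the SMARCB1 line, most in the 2 SMARCB1 Dox libraries. GATA1 and GATA4 had 0 counts.

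The families have 4 further genes. GATA1, the factor of red cells and platelets, had 0 counts in all 8 libraries. GATA5, another factor of heart and endoderm, had 8 and 5 counts for SMARCB1 DMSO, 32 and 10 for SMARCB1 Dox, 4 and 4 for GFP DMSO, and 4 and 2 for GFP Dox. Its summed counts gave a ratio of 2.84 for SMARCB1 Dox against SMARCB1 DMSO, with a 95% exact counting interval from 1.5 to 5.78, most of it from SMARCB1 Dox replicate 1. FOXA3, the third FOXA gene, had 0 to 3 counts per library. With no expression filter GATA3, GATA5 and FOXA3 could be tested where the choice of genes played no part, and the adjusted p in edgeR was 1 for each of them with Dox in the GFP line and 0.643 or more between the untreated lines. TRPS1, an atypical GATA protein that represses transcription, was the most abundant of all at 210 to 265 CPM in the group means. Its log2 difference was -0.14 with SMARCB1 (adjusted p = 0.341 in edgeR), 0.02 with Dox in the GFP line (adjusted p = 1) and -0.18 between the untreated lines (adjusted p = 0.133). TRPS1 was not among the 6 members, so its values are given with a test. The lists, however, were chosen with earlier results of these data known. Thus 1 of the 4 relatives passed the filter. It was called in 0 of the 3 comparisons, beside 14%, 0% and 32% of all tested genes. Between the untreated lines it was called with library totals in place of TMM, and with the replicate number as a block with or without a GC correction.

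Genes beside the members were examined because reads can be shared where genes overlap. GATA2-AS1 runs opposite to GATA2 and shares 78 exon bases with it, 1.59% of the exon length of GATA2. Its counts were 525 and 605 for SMARCB1 DMSO, 693 and 699 for SMARCB1 Dox, 573 and 644 for GFP DMSO, and 454 and 574 for GFP Dox. It was not called in any of the 3 comparisons, with log2 differences of 0.12, -0.15 and 0.11 (adjusted p = 0.536, 1 and 0.481 in edgeR). The ratio of their counts was 0.899 and 1.03 in SMARCB1 DMSO and 2.07 and 2 in GFP DMSO. GATA6 shares 94 exon bases (2.47%) with GATA6-AS1, which had 0 to 4 counts per library, and 321 exon bases (8.45%) with the unnamed antisense gene ENSG00000266283, which had 0. FOXA1 shares 16 exon bases (0.362%) with TTC6, which had 0 to 2 counts. Whether reads were counted by strand is not given in the sources used here, so reads in the shared bases cannot be assigned with certainty. Near the 2 members with no counts, LINC00261 and LNCNEF beside FOXA2 also had 0 counts in every library, whereas NEIL2 and FDFT1, within 50 kb of GATA4, were expressed and were not called in these comparisons. TAF3 near GATA3 and MIPOL1 near FOXA1 were not called either. The other 14 of the 24 genes within 50 kb of a member had 0 to 3 counts per library and were not tested.

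The genes whose pattern over the 8 libraries was most like that of a member were found by the root-mean-square difference of mean-centred log2 CPM (pseudocount 0.1 CPM) among protein-coding genes that averaged 5 CPM or more across all 8 libraries. For GATA2 they were MRAS, RCBTB2, LIMK2, ZFHX2 and KIAA1522, with differences from 0.0792 to 0.11 over 9463 candidates. MRAS, a small GTPase, stood at 29.6, 36.5, 56.3 and 55.1 CPM in SMARCB1 DMSO, SMARCB1 Dox, GFP DMSO and GFP Dox. For GATA6 they were DPYSL2, PODXL, TGFBR3, LGR4 and OAF, with differences from 0.211 to 0.315. PODXL, a sialomucin of podocytes and pluripotent cells, stood at 8.24, 21.1, 2.25 and 2.43 CPM, and LGR4, a receptor for R-spondins, at 59.5, 130, 10.6 and 9.37 CPM. For FOXA1 they were PDP1, CCDC126, MYO1E, TTC39C and LRRC1, with differences from 0.366 to 0.426. PDP1, a phosphatase of the pyruvate dehydrogenase complex, stood at 7.76, 19.9, 5.93 and 5.54 CPM.

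The wider pathways were read from lists of genes. Among 20 cofactors of GATA factors 11 were tested, and with SMARCB1 2 were called, both higher, beside 8.33% higher and 5.69% lower of all tested genes. HAND1, a basic helix-loop-helix factor of heart and extraembryonic tissue, stood at 4.15 ± 0.39 CPM in SMARCB1 DMSO and 7.34 ± 0.186 CPM in SMARCB1 Dox (SD, n = 2), with a log2 difference of 0.82 (adjusted p = 0.00399 in edgeR). ZFPM1, also called FOG1, binds GATA proteins directly. It differed by 0.48 (adjusted p = 0.0247 in edgeR), and that call was lost without SMARCB1 DMSO replicate 1 (adjusted p = 0.127), without SMARCB1 DMSO replicate 2 (0.0589) and without SMARCB1 Dox replicate 1 (0.138). The median over the 11 genes was 0.09, beside -0.004 over all tested genes. Before induction HAND1 was already higher in the SMARCB1 line by 2.76 (adjusted p = 8.49e-09), as was LMO4, a LIM-only adaptor, by 2.45 (adjusted p = 0.00496, and 0.0947 without SMARCB1 DMSO replicate 2). MEF2C, a MADS box factor of muscle, was lower in the SMARCB1 line, with a log2 difference of -5.56 (adjusted p = 8.74e-16), and ZFPM1 and MEF2A were lower too, so 2 were higher and 3 lower, beside 16.3% and 15.7% of all tested genes. MEF2A, like other genes beyond the 4 largest calls of a list, is named after its value was seen.

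Among 21 partners of FOXA factors 14 were tested and 3 were called higher with SMARCB1, beside 8.33% of all tested genes, with a median over the list of 0.1. TLE3 and TLE2, Groucho corepressors that bind FOXA proteins, differed by 1.35 (adjusted p = 0.0325 in edgeR) and 0.57 (adjusted p = 0.0496). TLE2 lost its call without any 1 of the 4 libraries (adjusted p from 0.0745 to 0.218) and TLE3 without SMARCB1 DMSO replicate 1, SMARCB1 Dox replicate 1 or SMARCB1 Dox replicate 2 (0.0885 to 0.227). Without SMARCB1 DMSO replicate 1, or without either SMARCB1 Dox library, 1 partner was called, as in DESeq2. With library totals in place of TMM 5 were called, all higher, and with the replicate number as a block 5, of which 4 were higher. For a difference of the Dox effects between the lines 0 of the 14 were called, beside 4.71% of all tested genes. That difference was 1 for TLE3 (adjusted p = 0.36 in edgeR) and 0.56 for TLE2 (0.289). Between the untreated lines 5 partners were higher and 5 lower in the SMARCB1 line, beside 16.3% and 15.7% of all tested genes. TLE1 stood at 95.8 ± 1.08 against 8.25 ± 0.471 CPM (log2 difference 3.54, adjusted p = 9.23e-18), and NFIA, a CCAAT-binding factor, at 0.572 ± 0.178 against 17.8 ± 0.348 CPM (-4.94, adjusted p = 1.18e-11). TFAP2A, ONECUT2 and NFIX were also higher, and the others lower were TLE2, TLE3, TLE4 and CEBPA.

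The FOXA genes belong to the forkhead family, and of its 41 other genes on the list 27 were tested. With SMARCB1, 8 were called higher and 1 lower, against 8.33% and 5.69% of all tested genes, and the median over the 27 was 0.04. FOXC1, a factor of mesoderm and neural crest, stood at 58.3 ± 6.89 CPM in SMARCB1 DMSO and 115 ± 26.8 CPM in SMARCB1 Dox (log2 difference 0.97, adjusted p = 4.11e-06 in edgeR). FOXO4 and FOXO6, of the FOXO branch of the family, rose by 1.35 (adjusted p = 0.000168) and 2.3 (adjusted p = 0.00284). FOXO6 had 5 and 7 counts before and 34 and 34 after induction. FOXS1 differed by 1.87 (adjusted p = 0.0346), a call lost without SMARCB1 DMSO replicate 1 (0.06), SMARCB1 DMSO replicate 2 (0.197) or SMARCB1 Dox replicate 2 (0.213). The lower gene, FOXN2, fell by 0.32 on the log2 scale (adjusted p = 0.0106) and was named after its value was seen. Without SMARCB1 DMSO replicate 1, 4 genes of the list were called in place of 9. In the GFP line 0 of the 27 were called, beside 0% of all tested genes. Between the untreated lines 8 were higher and 6 lower in the SMARCB1 line, beside 16.3% and 15.7% of all tested genes. FOXF2 had 13 and 11 counts in SMARCB1 DMSO and 0 in both GFP DMSO libraries, at least 9.29-fold higher when 3 counts over the GFP group are taken as the limit. FOXL1 (log2 difference 3.98, adjusted p = 4.04e-10) and FOXC2 (2.99, adjusted p = 1.46e-12) were higher and FOXS1 (-4.9, adjusted p = 3.37e-09) was lower.

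Endoderm was read from 2 lists. Of 25 endoderm regulators only 6 were tested, and 6 had no count in any library. KLF5, a zinc finger factor of gut epithelium and early embryos, was the only 1 called with SMARCB1, beside 14% of all tested genes. It stood at 1.8 ± 0.117 CPM in SMARCB1 DMSO and 6.9 ± 1.83 CPM in SMARCB1 Dox (log2 difference 1.94, adjusted p = 4.11e-06 in edgeR). The median of the 6 genes was 0.23, and 2 were called without SMARCB1 Dox replicate 1. Between the untreated lines OTX2 (log2 difference -3.48, adjusted p = 3.41e-16) and SOX18 (-1.27, adjusted p = 0.00511, and 0.0638 without GFP DMSO replicate 1) were lower and HHEX (0.84, adjusted p = 0.000113) was higher in the SMARCB1 line.

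Of 26 genes of the primitive endoderm, the tissue that GATA6 is known to direct, 25 were matched and 16 tested, and 5 were called higher with SMARCB1 and 0 lower, beside 8.33% and 5.69% of all tested genes. The median over the 16 was 0.09. LAMB1, a laminin chain of basement membranes, stood at 78.6 ± 8.7 CPM in SMARCB1 DMSO and 152 ± 5.49 CPM in SMARCB1 Dox (log2 difference 0.95, adjusted p = 1.23e-06 in edgeR). PDGFRA, a growth factor receptor, rose by 1.78 (adjusted p = 0.000229) from 17 and 8 counts to 47 and 51, far below its 2127 to 2666 counts in the GFP libraries. FGFR3 rose by 0.94 (adjusted p = 0.000362). TXNIP differed by 0.44 (adjusted p = 0.0445, and 0.0891 to 0.315 without SMARCB1 DMSO replicate 1 or either SMARCB1 Dox library), and DESeq2 did not call it (adjusted p = 0.722). With Dox in the GFP line TXNIP differed by 0.47 (SE 0.35) and LAMB1 by 0.79 (SE 0.407), both at an adjusted p of 1 in edgeR. Neither was called for a difference of the Dox effects between the lines, at -0.04 for TXNIP (adjusted p = 0.98) and 0.16 for LAMB1 (adjusted p = 0.917). The fifth was APOE at 0.36 (adjusted p = 0.0158), named after its value was seen. Without SMARCB1 Dox replicate 1, 3 genes of the list were called. LAMB1 and PDGFRA moved the same way with SMARCB1 but stood in opposite order between the untreated lines. LAMB1 was higher in the SMARCB1 line by 7.87 on the log2 scale (adjusted p = 1.03e-18) and PDGFRA was lower, with a difference of -7.37 (adjusted p = 8.14e-19). DKK1, an inhibitor of WNT signaling, was lower as well, at -8.66 (adjusted p = 3.31e-19). In all 9 genes of the list were higher and 5 lower between the untreated lines, beside 16.3% and 15.7% of all tested genes, with a median of 0.84.

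Known targets were read last. Of 18 cardiac genes that GATA factors regulate, 11 were tested, and with SMARCB1 2 were called higher and 1 lower, beside 8.33% and 5.69% of all tested genes, with a median of 0.09. NPPB, the gene of the B-type natriuretic peptide, had 4 and 3 counts in SMARCB1 DMSO and 42 and 29 in SMARCB1 Dox, 8.93-fold more after scaling, with a 95% exact counting interval from 4.12 to 23. Its call (adjusted p = 0.0021 in edgeR) was lost without SMARCB1 Dox replicate 1 (0.051). MYL7, an atrial myosin light chain, had 1 and 0 counts before and 27 and 20 after induction, 41.4-fold more, with an interval from 7.07 to 1670 (adjusted p = 0.000629 in edgeR). Before induction MYL7 was lower in the SMARCB1 line than in the GFP line, with 1 count against 15 in GFP DMSO, a ratio of 0.0774 with an interval from 0.00184 to 0.503 (adjusted p = 0.0228 in edgeR). That call was lost without SMARCB1 DMSO replicate 2 (adjusted p = 0.187), without GFP DMSO replicate 1 (0.135) and in DESeq2 (0.098). SEMA3C, a semaphorin, fell by 0.51 on the log2 scale (adjusted p = 0.000872) from 437 ± 71 to 307 ± 14.3 CPM. Between the untreated lines 4 cardiac genes were higher in the SMARCB1 line and 3 lower, beside 16.3% and 15.7% of all tested genes, and 4 genes in place of 7 were called without SMARCB1 DMSO replicate 1 or either GFP DMSO library. CCND2, cyclin D2, stood at 30.8 ± 2.71 CPM in SMARCB1 DMSO against 0.769 ± 0.168 CPM in GFP DMSO (log2 difference 5.33, adjusted p = 3.8e-15 in edgeR). Of 19 hepatic and epithelial genes that FOXA factors regulate, 8 were tested. With SMARCB1 0 of the 8 were called, beside 14% of all tested genes, with a median of 0.13. DESeq2 called 1 of the list, and edgeR called 1 without SMARCB1 Dox replicate 1 and 1 with the replicate number as a block, with 0 higher in each case. With a GC correction beside the block 2 were called, 1 of them higher. Between the untreated lines 5 of the 8 were lower in the SMARCB1 line and 0 higher, beside 15.7% lower and 16.3% higher of all tested genes, with a median of -0.74. CPS1, the entry enzyme of the urea cycle, stood at 5 ± 0.0884 against 33.7 ± 2.26 CPM (log2 difference -2.75, adjusted p = 2.12e-14), and MUC1, TAT, KRT8 and KRT18 were the others. The call of TAT was lost without SMARCB1 DMSO replicate 2 (adjusted p = 0.0944) or GFP DMSO replicate 1 (0.051). With Dox in the GFP line 0 genes of any of these lists were called, beside 0% of all tested genes. This count therefore tells nothing about the lists.

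**Figure D4:**
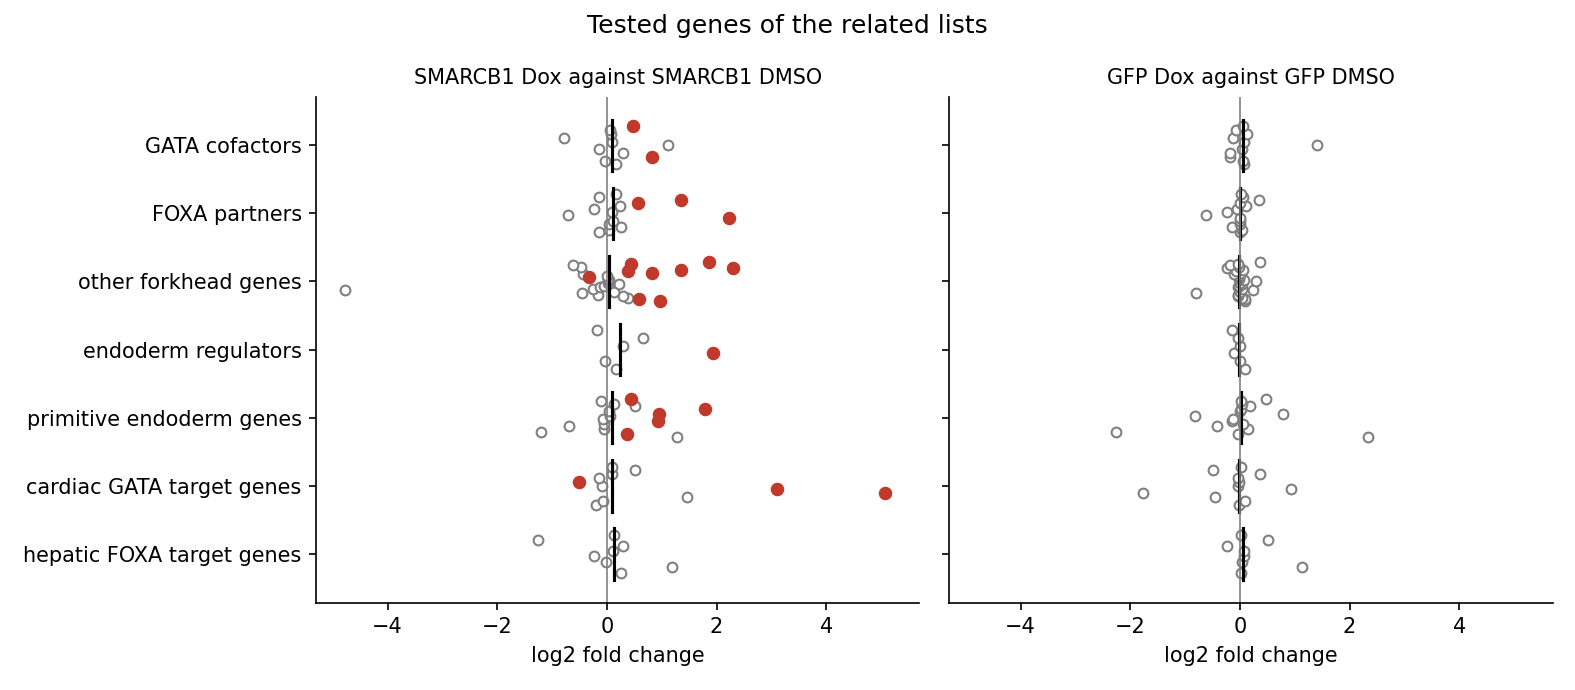
Log2 fold changes of the tested genes of 7 lists in SMARCB1 Dox against SMARCB1 DMSO (left) and GFP Dox against GFP DMSO (right). Filled points were called (edgeR adjusted p under 0.05), open points were not, and black bars are list medians. Called genes appear only on the left, where the 7 medians lie between 0.04 and 0.23. In the comparison on the right 0% of all tested genes were called. Points beyond 4 in size are fitted values that rest on few counts.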

How the data were processed

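RNA was sequenced from 8 libraries of G401 cells, 2 in each of 4 groups named after the sample titles. The authors aligned reads with STAR to hg38 and deposited whole-number read counts per Ensembl gene, made with HTSeq from GENCODE annotation. Versions of these tools and the strand setting are not given in the sources used here. The labels and the methods name different library kits. Between 27% and 29.3% of the counts of a library stood in 5 entries that name no gene, and these were left out.

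Counts were analysed in R 4.3.3 with edgeR 4.0.16. Genes were kept by filterByExpr (15931 of 69215), scaled by TMM, and tested by the quasi-likelihood F-test in 1 fit over 8 libraries with a mean per group. P-values were adjusted by Benjamini-Hochberg over all tested genes, with a threshold of 0.05. Symbols and positions came from GENCODE v44, and 62625 gene identifiers matched. Promoter windows are from RefSeq (GRCh38.p14). Coordinates count from 1. DESeq2 1.42.0, other scalings and filters, a replicate block and leaving out each library were alternatives. The fit was tested on simulated counts.

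The text names all 6 members, their relatives, those of the 24 genes within 50 kb of them that overlap a member's exons, were tested or lie beside FOXA2 (the rest as a count), up to 4 called genes of largest change per list and comparison, and the 5 genes most like each tested member. The members and lists were chosen with earlier results of these data known. Results of some listed genes are not reported here, although they count in the list totals.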

Additional observations from a re-analysis of the deposited data

Results flagged for a closer look

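The Dox effect differed between the lines for 750 genes by the interaction test in edgeR (4.71% of those tested, with the larger value in the SMARCB1 line for 489 and the smaller for 261). Of the other forkhead genes 5 were included, all with the larger value in the SMARCB1 line. The log2 difference of the Dox effects was 2.53 for FOXO6 (adjusted p = 0.0365 in edgeR), 1.3 for FOXO4 (0.0142), 0.89 for FOXC1 (0.00207), 0.47 for FOXP4 (0.0404) and 0.46 for FOXO3 (0.0431). FOXC1 kept its call under every alternative. FOXO6 lost it without any 1 of the 8 libraries (adjusted p from 0.0808 to 0.141), and the count for the list fell to 1 without SMARCB1 Dox replicate 2, GFP DMSO replicate 1 or GFP Dox replicate 2. FOXO4 lost its call without SMARCB1 Dox replicate 2 (adjusted p = 0.0568 in edgeR), GFP DMSO replicate 1 (0.1) or GFP Dox replicate 2 (0.0655), and FOXP4 without any 1 library other than SMARCB1 DMSO replicate 2 (0.0664 to 0.188). FOXO3 is named after its value was seen.

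Of the endoderm lists, KLF5 differed by 2.05 (adjusted p = 0.00116 in edgeR), PDGFRA by 1.75 (0.00148) and FGFR3 by 1.08 (0.00755), and these 3 were called under every alternative. Of the cardiac genes, MYL7 differed by 6.84 (adjusted p = 0.00302), a fitted value from 47 counts after and 1 before induction of SMARCB1, and 4 and 15 with GFP, and SEMA3C by -0.51 (0.0332). The call of SEMA3C was lost without SMARCB1 DMSO replicate 1, SMARCB1 Dox replicate 1, GFP DMSO replicate 1, GFP DMSO replicate 2 or GFP Dox replicate 1 (adjusted p from 0.0739 to 0.215).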

How the results depend on the processing

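The 12 log2 values of GATA2, GATA6 and FOXA1 were refitted 153 times. No tested value gained or lost its call. The direction changed only for uncalled values, GATA2 (-0.14 to 0.04) and FOXA1 (-0.83 to 0.6) with Dox in the GFP line and FOXA1 between the untreated lines, at -0.01 without GFP DMSO replicate 1. GATA6 between the untreated lines ranged from 2.3 to 2.46 and GATA2 from -1.08 to -0.86. With SMARCB1, GATA6 ranged from 1.26 to 1.4, FOXA1 from 1.09 to 1.71 and GATA2 from 0.24 to 0.53.

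Without 1 library at a time, 1284 to 2009 genes were called with SMARCB1 in place of 2234, 1462 without SMARCB1 DMSO replicate 1 and 1284 without SMARCB1 Dox replicate 1. The interaction gave 390 to 805 in place of 750. With no expression filter 1 gene was called with Dox in the GFP line. Library totals in place of TMM called 2482 genes with SMARCB1, 1985 of them higher (main 1327 of 2234), 5389 between the lines, 1732 higher (main 2600 of 5105), and 829 in the interaction, 670 higher (main 489 of 750), with median log2 shifts of 0.088, -0.101 and 0.071.

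Replicate numbers are shared across groups, but nothing says that they mark a batch. Deviations of same-numbered libraries correlated weakly but always positively, at 0.0309 to 0.148. The highest value, 0.148, was between SMARCB1 DMSO and SMARCB1 Dox. Whether same-numbered libraries share more than a number was not tested. With the number as a replicate block 3149, 0 and 5977 genes were called in the 3 comparisons and 1282 in the interaction, 1216 with a GC correction as well. No call of a member changed with Dox in the GFP line or between the untreated lines. In the other comparisons the members have no test. Of 647 refits of the named list genes 70 lost the call and 0 reversed. Counts limit FOXA1, GATA3 and, in the GFP line, GATA6.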
